A study of Mus musculus with 8 samples.

Results

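The effect of forced Nfib was compared between mouse small cell lung cancer (SCLC) cultures that differed in how much Nfib they already made. SCLC is a neuroendocrine lung tumor, and the cultures were grown from primary tumors of mice on a mixed FVB/n and 129/Ola background. Per the labels, all of them carried the invCAG-Mycl-Luc transgene and were Rb1-/-, so that every group here shares both. All 8 RNA-seq libraries of the series entered: each of 4 cultures was profiled once with an empty vector and once with mouse Nfib overexpressed. The levels were chosen by the Nfib value of the empty vector library, with the division at 250 CPM, a read count scaled to the column total. Lmyc1 old (replicate 1) and Lmyc3 new (replicate 3) lay below this value and are called Nfib-low, which gives 4 libraries, and Lmyc3 old (replicate 2) and Lmyc5 new (replicate 4) lay above it and are called Nfib-high, which gives the other 4. Each level thus held 1 culture called old and 1 called new, which the labels leave undefined, and the line Lmyc3 stood on both sides. The labels name no age, time after transfer or vector promoter, and each arm of a culture was 1 library.

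Nuclear factor I B is a DNA-binding protein of the NFI family. Its members bind, mostly as dimers, to a palindrome of TTGGC and GCCAA spaced by a short gap, and a single arm of the palindrome is bound more weakly. In lung development NFIB acts in the maturation of the epithelium and the mesenchyme, in the nervous system it acts in the differentiation of neurons and glia, and in SCLC the gene is often amplified.

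Total counts ranged from 21815264 to 29934021 per library, and a gene with a count of 0 may have had up to 3 counts, or at most 0.138 CPM. Neuroendocrine identity was checked with Chga (423 to 1686 CPM over the 8 libraries), Insm1 (91.8 to 507 CPM), Syp (86.6 to 342 CPM), Uchl1 (214 to 407 CPM) and Ncam1 (99.7 to 262 CPM), and each was present in all 8. The defining leukocyte gene Ptprc (0 to 0.0436 CPM), the endothelial genes Pecam1 (0 to 0.424 CPM) and Cdh5 (0 to 0.0448 CPM), and the fibroblast gene Col1a1 (0 to 0.181 CPM) were at or near 0. Over the 8 libraries, the summed level of 10 leukocyte markers lay between 19.6 and 58.3 CPM, nearly all of it Coro1a, and that of 10 fibroblast markers between 1.34 and 48.0 CPM, mainly Fbln1 and Pdgfra. Summed over 8 endothelial markers it was 340 to 653 CPM in Nfib-low and 51.4 to 73.4 CPM in Nfib-high libraries. Of this sum Vwf, von Willebrand factor, made up most, at 333 and 651 CPM in the Nfib-low and 49.7 and 70.8 CPM in the Nfib-high cultures with empty vector, and its part in the results was not tested. CPM values of these markers, and all those below unless the column total is named, use TMM-scaled library sizes. Replicate numbers pair the 2 arms of a culture.

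Nfib itself (ENSMUSG00000008575, chromosome 4, 82290173 to 82705750, GRCm38) chose the levels, so its values are a description. In CPM of the column total it went from 70.9 to 1294 in replicate 1 and from 165 to 3005 in replicate 3, an 18.3-fold and an 18.2-fold rise. In the Nfib-high cultures it went from 388 to 4586 in replicate 2 and from 483 to 3656 in replicate 4, which is 11.8-fold and 7.57-fold. The nearest values on each side of the dividing value were 165 CPM (replicate 3) and 388 CPM (replicate 2). The mean with empty vector was 118 ± 66.5 CPM (SD, n = 2) in Nfib-low and 435 ± 67.4 CPM (SD, n = 2) in Nfib-high cultures, and with forced Nfib 2150 ± 1210 CPM (SD, n = 2) and 4121 ± 658 CPM (SD, n = 2). Both Nfib-high cultures thus also had the higher total after transfer, and the lowest forced level lay above the highest endogenous one. The endogenous level and the level reached cannot be told apart in this design, nor can either be told apart from other differences between the cultures. Counts per gene do not separate the introduced copy from the endogenous gene.

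**Figure D1:**
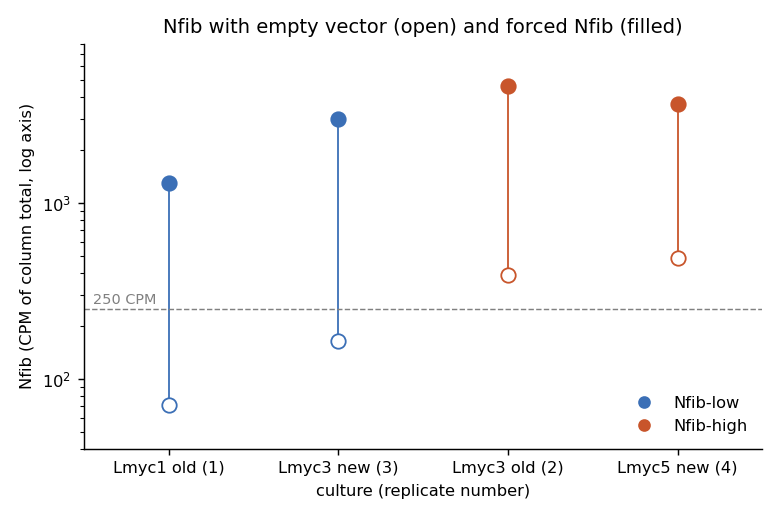
Nfib in CPM of the column total (log axis) in the empty vector library (open points) and the forced Nfib library (filled points) of each culture, with the dividing value of 250 CPM as a dashed line. The Nfib-low cultures started at 70.9 and 165 CPM and the Nfib-high cultures at 388 and 483 CPM, and the lowest forced level was 1294 CPM.

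The question was whether the same genes respond to forced Nfib at both levels. A model with the culture as a block gave each gene an effect in Nfib-low cultures, an effect in Nfib-high cultures, their difference and their mean, over 13380 tested genes. The edgeR quasi-likelihood test at a Benjamini-Hochberg adjusted p under 0.05 called 7 genes in Nfib-low cultures (0.0523% of the genes tested, all higher) and 30 in Nfib-high cultures (0.224%), of which 24 were higher (0.179%) and 6 lower (0.0448%). It called 3 with a different effect (0.0224%), 2 more positive in Nfib-high cultures (0.0149%) and 1 more negative (0.00747%). The 7 were Adcy3, Kif26b, Sirpa, Nfib, Ptgds, Tmem132b and Duox2, and the 3 were Bmpr1b, Ildr2 and Ptgds. DESeq2's Wald test on the same design called 211 genes in Nfib-low cultures (1.58%), 119 higher (0.889%) and 92 lower (0.688%). In Nfib-high cultures it called 460 (3.44%), 243 higher (1.82%) and 217 lower (1.62%). It called 102 with a different effect (0.762%), 57 more positive in Nfib-high cultures (0.426%) and 45 more negative (0.336%). DESeq2 also called 7 of the 7, 29 of the 30 and 3 of the 3 edgeR genes. At an unadjusted p under 0.05 edgeR had 1227 genes for the difference (9.17%). The design rests on 2 residual degrees of freedom, and without replicate 4 edgeR called 91 genes for the difference, against 0 without any other replicate.

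Because edgeR called fewer than 10 genes for the Nfib-low effect and for the difference, those are described by DESeq2, and rose, fell and differed refer to that test. For the Nfib-high effect and for the mean effect these verbs refer to edgeR, and a gene that passed only DESeq2 there is said to have passed DESeq2. Differences are the Nfib-high effect minus the Nfib-low effect on the log2 scale, with standard errors. By DESeq2, 43 genes passed at both levels in the same direction and 5 in opposite directions. A further 163 passed only in Nfib-low cultures, of which 29 also differed, and 412 passed only in Nfib-high cultures, of which 56 differed. For the remaining genes that passed at 1 level only, the data do not show that the effects differed.

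Nfib is itself 1 of the 102 genes, which follows from the rule and is not read further. Among the 102, the effects had opposite signs in 73 and the same sign in 29. In 101 of them both within-pair log2 ratios of one level lay above both of the other, an arrangement found in 5447 of all tested genes (40.7%). Of the 57 with a positive difference, 43 passed DESeq2 as higher in Nfib-high cultures and 9 fell in Nfib-low cultures. Of the 45 with a negative difference, 29 rose in Nfib-low cultures and 20 passed DESeq2 as lower in Nfib-high cultures. These genes were chosen for unequal effects, so their place off the diagonal in the cloud of mean ratios follows from the choice. Across genes, the within-pair ratios of the Nfib-low cultures correlated with r of 0.409 and those of the Nfib-high cultures with r of 0.343, against 0.162 to 0.267 for pairs of cultures from different levels, over 13380 genes that are not independent. Every ratio holds the counting error of its own 2 libraries, and these correlations are a description.

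**Figure D2:**
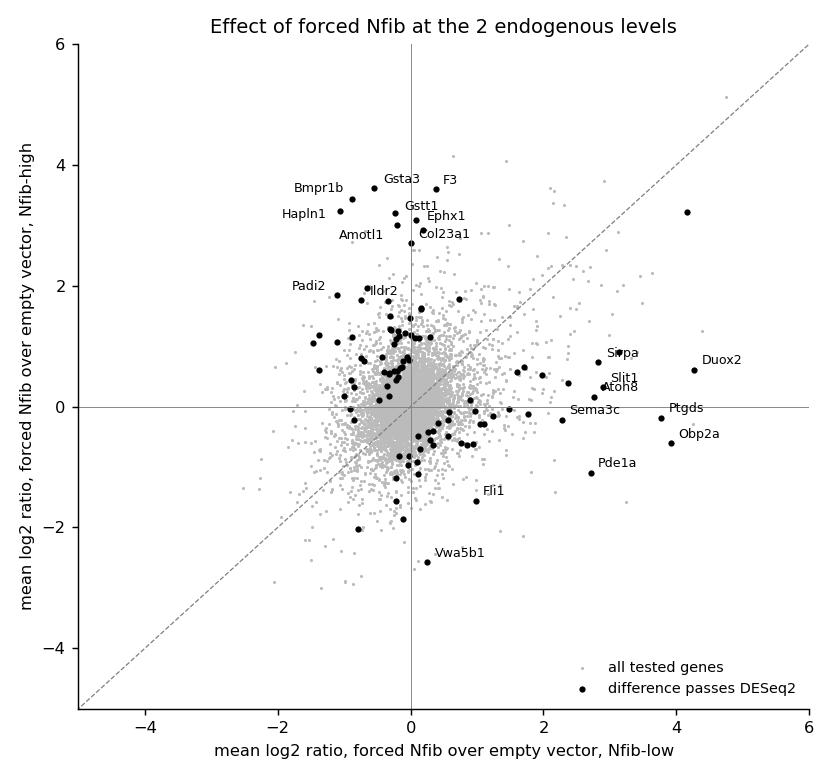
Mean within-pair log2 ratio of forced Nfib over empty vector in the Nfib-low cultures (x axis) and the Nfib-high cultures (y axis) for each of 13380 tested genes, with the 102 genes whose effect differed by DESeq2 in black and the dashed line marking equal effects. Named genes such as Ptgds and Duox2 lie far to the right near the height of 0, and Bmpr1b and Ephx1 lie high near the vertical line at 0.

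A first group of genes responded in Nfib-low cultures, and several of its members were already abundant in Nfib-high cultures with the empty vector. Slit1, a secreted ligand of Robo receptors that guides axons (ENSMUSG00000025020, chromosome 19, 41600257 to 41743665), rose from 4.36 to 45.6 CPM (replicate 1) and 7.29 to 39.4 CPM (replicate 3). In the Nfib-high cultures it went from 70.3 to 105 CPM (replicate 2) and 325 to 338 CPM (replicate 4). Every empty vector value at the low level was thus below every other value, and the forced values at the low level stayed below the endogenous values at the high level. Its Nfib-low effect was 2.90 ± 0.26 (DESeq2 adjusted p of 8.64e-25), its Nfib-high effect 0.31 ± 0.25 (adjusted p of 0.796), and the difference -2.59 ± 0.36 (adjusted p of 2.68e-09). The difference passed DESeq2 in each of the 4 fits that leave out 1 culture, where it ranged from -3.08 to -2.12.

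Sirpa, the receptor that reads CD47 on neighbouring cells (ENSMUSG00000037902, chromosome 2, 129592835 to 129632228), rose from 1.26 to 13.3 CPM (replicate 1) and 0.223 to 1.47 CPM (replicate 3). It went from 34.5 to 57.6 CPM (replicate 2) and 42.4 to 70.6 CPM (replicate 4), and this was called by edgeR for the mean of both levels but not for the Nfib-high cultures alone. The ratios were positive in all 4 pairs and the difference was one of size, -2.50 ± 0.43 (DESeq2 adjusted p of 6.16e-06). Ptgds, which makes prostaglandin D2 and carries small lipophilic molecules (ENSMUSG00000015090, chromosome 2, 25466709 to 25470046), rose from 0.614 to 14.7 CPM (replicate 1) and 0 to 0.648 CPM (replicate 3), and went from 13.8 to 12.4 CPM (replicate 2) and 38.3 to 33.2 CPM (replicate 4). Its difference of -4.91 ± 0.67 passed both DESeq2 (adjusted p of 1.53e-09) and edgeR (adjusted p of 0.0417). The empty vector library of replicate 3 held no count of Ptgds. Without replicate 1 the difference of Sirpa was -1.98 with an adjusted p of 0.989, and that of Ptgds was -6.75 with an adjusted p of 0.359, while both passed without any other replicate.

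Duox2, an oxidase that releases hydrogen peroxide, rose from 0.102 to 6.11 CPM (replicate 1) and 0.0372 to 1.25 CPM (replicate 3), and went from 0.894 to 1.72 CPM (replicate 2) and 14.3 to 18 CPM (replicate 4). Pde1a, a phosphodiesterase switched on by calcium and calmodulin, rose from 0.75 to 5.5 CPM (replicate 1) and 0.112 to 1.17 CPM (replicate 3), and went from 3.34 to 1.18 CPM (replicate 2) and 48.8 to 29.2 CPM (replicate 4). Both cultures with more endogenous Nfib had more Duox2 and Pde1a with the empty vector than the Nfib-low cultures had, and for Pde1a the ratio there was below 0 in each pair. The differences were -5.08 ± 1.05 for Duox2 (DESeq2 adjusted p of 0.000817) and -4.08 ± 0.64 for Pde1a (adjusted p of 4.22e-07). Pde1a lost its call without replicate 4 (adjusted p of 0.185), and Duox2 lost it without replicate 1 (0.993) or replicate 4 (0.408). Aif1l, an actin-bundling relative of Aif1, rose from 8.66 to 41.5 CPM (replicate 1) and 4.46 to 25.5 CPM (replicate 3) and went from 35.3 to 56.5 CPM (replicate 2) and 43.3 to 46.6 CPM (replicate 4). It lies outside the naming rule and is named, after its values were seen, because its difference of -1.99 ± 0.35 (DESeq2 adjusted p of 9.09e-06) passed in all 4 fits that leave out 1 culture.

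Transcription factors and guidance genes followed among the named members. Atoh8, a basic helix-loop-helix factor, rose from 2.42 to 14.3 CPM (replicate 1) and 1.23 to 10.5 CPM (replicate 3), and stood at 35.2 and 15.9 CPM with empty vector in replicates 2 and 4, where its ratios of -0.62 and 0.95 had opposite signs. Sox11, an SRY-related factor of immature neurons, rose from 78 to 123 CPM (replicate 1) and 7.59 to 27.2 CPM (replicate 3), and stood at 344 and 244 CPM in the Nfib-high empty vector libraries. It too was named after its values were seen. Sema3c, a secreted semaphorin, rose from 1.84 to 7.64 CPM (replicate 1) and 2.94 to 17.5 CPM (replicate 3), and was nearly flat in value at the high level (5.65 against 5.53 CPM in replicate 2, 8.68 against 6.55 CPM in replicate 4). Its difference of -2.55 ± 0.56 passed (DESeq2 adjusted p of 0.00219) but in none of the 4 fits that leave out 1 culture, where it ranged from -2.79 to -2.28. The call for Atoh8 (-2.65 ± 0.63, adjusted p of 0.00646) held only without replicate 4, with a range from -3.42 to -1.88.

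Obp2a, an odorant-binding lipocalin, differed from the genes above in its baseline. It rose from 3.82 to 34.7 CPM (replicate 1) and 0.483 to 14.5 CPM (replicate 3), while in the Nfib-high cultures it read 0.424 and 0.136 CPM in replicate 2 and no count in either library of replicate 4. Its difference of -5.38 ± 1.31 (DESeq2 adjusted p of 0.00985) therefore compares a rise with a gene at the limit of detection. The filter on low counts left it in only 2 of the fits that leave out 1 culture, and it passed in 1 of them, with a value of -5.58 without replicate 4 and -4.15 (adjusted p of 1) without replicate 2. Vwa5b1 and Fli1, an ETS-family factor, belong to the named genes through falls at the high level. Vwa5b1 went from 8 to 0.544 CPM (replicate 2) and 164 to 59.3 CPM (replicate 4) and Fli1 from 14.6 to 2.31 CPM (replicate 2) and 54 to 38.4 CPM (replicate 4), both passing DESeq2 there (adjusted p of 0.000149 and 0.0441), and neither passed in Nfib-low cultures. Without replicate 1 or 3 neither difference passed, with ranges over the 4 fits from -4.12 to -1.74 for Vwa5b1 and from -3.63 to -1.48 for Fli1. Fli1 also lost its call without replicate 2 (adjusted p of 0.196).

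**Figure D3:**
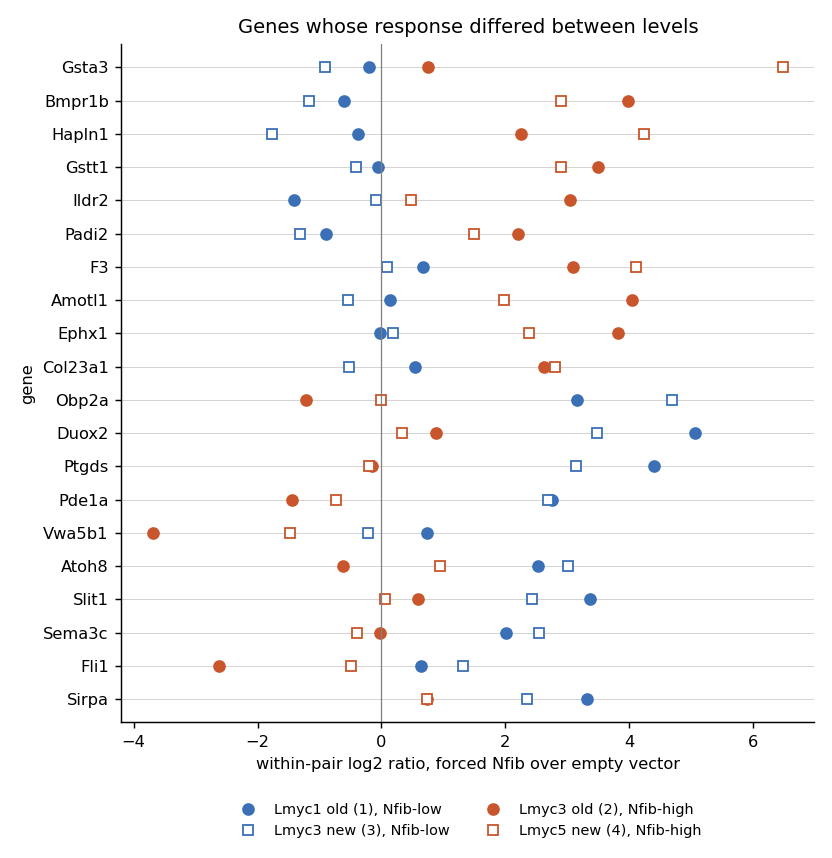
Within-pair log2 ratio of forced Nfib over empty vector (log2 CPM with a prior count of 2) for the 20 named genes whose effect differed, 1 point per culture, with Nfib-low cultures in blue and Nfib-high cultures in orange. The 2 blue and the 2 orange points do not overlap in any row, as the naming rule requires, and Gsta3 reached 6.48 in replicate 4 against 0.75 in replicate 2.

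A second group of genes had the larger rise in Nfib-high cultures. Bmpr1b, a type I receptor for bone morphogenetic proteins (ENSMUSG00000052430, chromosome 3, 141837136 to 142169425), rose from 1.46 to 24.1 CPM (replicate 2) and 0.0448 to 0.863 CPM (replicate 4). In the Nfib-low cultures it started higher and went from 6.55 to 4.28 CPM (replicate 1) and 23.3 to 10.3 CPM (replicate 3). Replicate 4 began below the limit of 3 counts, so the size of the rise there is uncertain. The difference of 4.99 ± 0.67 passed DESeq2 (adjusted p of 1.53e-09) and edgeR (adjusted p of 0.0417), and without replicate 2 it was 5.16 with a DESeq2 adjusted p of 0.216.

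Amotl1, an angiomotin-family protein of cell junctions (ENSMUSG00000013076, chromosome 9, 14541966 to 14615483), went from 4.14 to 69.5 CPM (replicate 2) and 3.36 to 13.4 CPM (replicate 4) and passed DESeq2 there with an effect of 3.03 ± 0.48 (adjusted p of 2.38e-07). The Nfib-low cultures held 37.4 and 18.6 CPM with empty vector and 41.2 and 12.7 CPM with Nfib. Its difference of 3.24 ± 0.68 (DESeq2 adjusted p of 0.000832) passed in all 4 fits that leave out 1 culture, with values from 2.18 to 4.27. Ephx1, the microsomal epoxide hydrolase that detoxifies reactive epoxides (ENSMUSG00000038776, chromosome 1, 180976155 to 181020904), rose from 3.39 to 48.7 CPM (replicate 2) and 0.985 to 5.45 CPM (replicate 4), and stayed between 8.48 and 14.8 CPM in the 4 Nfib-low libraries. That difference was 3.16 ± 0.60 (adjusted p of 9.07e-05) and lost its call without replicate 1 (0.122) or replicate 2 (0.253, with a value of 2.38).

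Other detoxification genes were less even between the cultures. Gstt1, a glutathione transferase, rose from 1.13 to 13.7 CPM (replicate 2) and 0.0448 to 0.863 CPM (replicate 4), against 2.07 to 2.79 CPM in the 4 Nfib-low libraries. Gsta3, another glutathione transferase, was called by edgeR at the high level, but the values show this in 1 culture: it went from 0.0471 to 0.136 CPM (replicate 2) and 0.492 to 51.2 CPM (replicate 4). Without replicate 4 its difference was 2.13 with a DESeq2 adjusted p of 1, against 6.12 ± 1.42 with all cultures. Both genes have close relatives, and reads that fit more than 1 of them may have been assigned unevenly. The Gstt1 difference of 3.98 ± 0.92 passed without replicate 4 (adjusted p of 0.0424) and not without replicate 2 (4.49, adjusted p of 1). In the fits without replicate 1 or 3, where Gstt1 was 4.22 and 3.84, DESeq2 left its adjusted p undefined.

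Matrix and surface genes were also among the named members. Col23a1, a transmembrane collagen, rose from 20.1 to 124 CPM (replicate 2) and 0.448 to 3.61 CPM (replicate 4), and stayed at or under 0.781 CPM in the Nfib-low libraries. Hapln1, which links hyaluronan to proteoglycans, went from 17.7 to 84.6 CPM (replicate 2) and 0.313 to 7.38 CPM (replicate 4), against at most 0.93 CPM at the low level. F3, tissue factor, the initiator of the extrinsic coagulation cascade, went from 1.37 to 12.2 CPM (replicate 2) and 0.134 to 3.65 CPM (replicate 4), and from 1.09 to 1.79 CPM (replicate 1) and 10.8 to 11.5 CPM (replicate 3). Hapln1 and F3 passed DESeq2 at the high level (adjusted p of 1.39e-05 and 1.08e-06). The differences of Col23a1 (3.08 ± 0.74), Hapln1 (4.58 ± 0.96) and F3 (3.35 ± 0.84) passed DESeq2, but F3 passed in none of the 4 fits that leave out 1 culture. Col23a1 did not pass without replicate 3 (1.39) and had no adjusted p without replicate 2. Hapln1 did not pass without replicate 3. The filter on low counts removed Hapln1 from the fit without replicate 2, the culture that held most of its counts. The F3 values ranged from 2.79 to 4.37.

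Padi2, a peptidylarginine deiminase, and Ildr2, an immunoglobulin-like protein of tricellular junctions, had negative ratios in both Nfib-low pairs and positive ratios in both Nfib-high pairs. Padi2 went from 17.2 to 9.25 CPM (replicate 1) and 4.65 to 1.82 CPM (replicate 3), and from 2.21 to 10.5 CPM (replicate 2) and 0.0448 to 0.275 CPM (replicate 4). It passed DESeq2 at the high level (adjusted p of 0.00889), and its difference of 3.42 ± 0.76 passed without replicate 4 only, with values from 3.21 to 3.72. Ildr2 differed mainly by replicates 1 and 2, since it went from 163 to 61.4 CPM (replicate 1) and 5.13 to 42.8 CPM (replicate 2), while the 4 libraries of replicates 3 and 4 held at most 0.372 CPM. The filter removed it from the fits without replicate 1 or 2, so that its difference of 3.74 ± 0.80 rests on those 2 cultures.

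**Figure D4:**
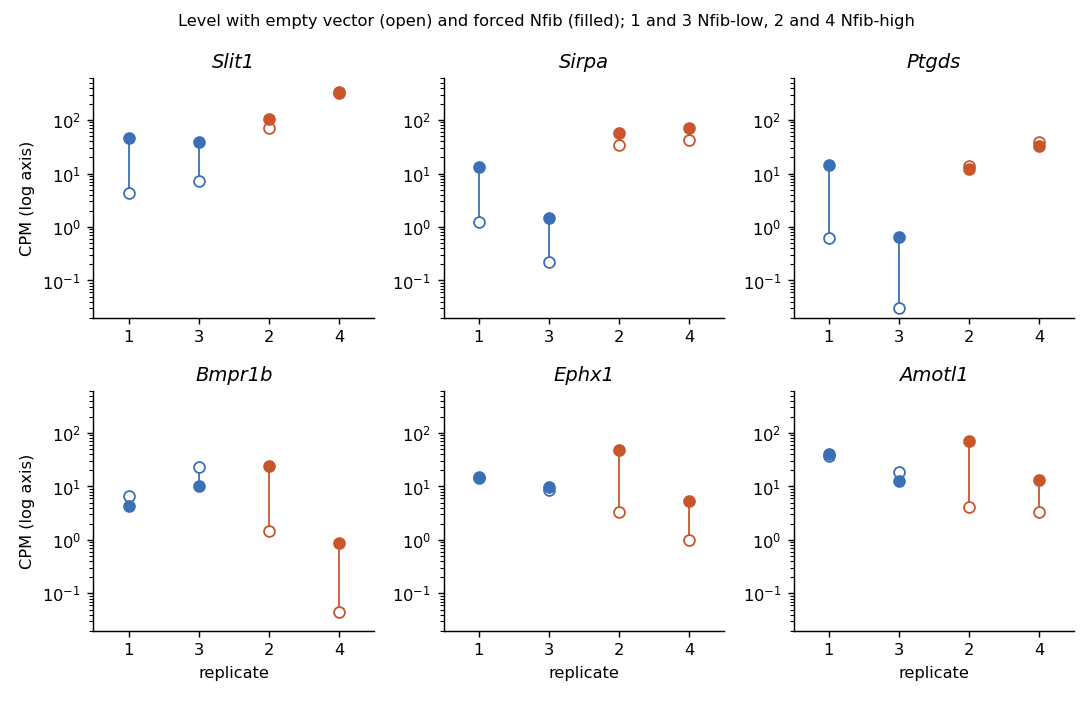
Level in CPM (log axis, values of 0 drawn at the lower edge) of 6 genes in the empty vector library (open) and the forced Nfib library (filled) of each culture, with Nfib-low cultures 1 and 3 in blue and Nfib-high cultures 2 and 4 in orange. Slit1, Sirpa and Ptgds start low in blue and are already high in orange, and Bmpr1b, Ephx1 and Amotl1 start lower in orange than in blue. These 6 were picked from the named genes without a rule, and not all named genes have this pattern. Obp2a, not shown, rose in Nfib-low cultures, where it also started higher. Col23a1 and Hapln1, not shown, had the larger effect in Nfib-high cultures, though replicate 2 started above both Nfib-low cultures.

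The baseline of a gene and its ratio share the empty vector library, so a chance low value there lowers the one and raises the other. For this reason the levels above are given side by side, with no count or correlation between baseline and response. In the forced Nfib libraries alone, Slit1 was still lower in both Nfib-low cultures (45.6 and 39.4 CPM) than in both Nfib-high cultures (105 and 338 CPM). Sirpa kept the same order (13.3 and 1.47 against 57.6 and 70.6 CPM). Ptgds in replicate 1 (14.7 CPM) passed the forced level of replicate 2 (12.4 CPM), and Amotl1 in replicate 2 (69.5 CPM) passed both Nfib-low libraries (41.2 and 12.7 CPM). For these, the order of the levels no longer held once Nfib was forced.

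Promoter sequence was available from RefSeq (GRCm38.p6) for 24 of the 34 genes named for a differing or a shared effect, in 31 windows. The 250 bases before the start are shown for 3 genes that differed, Ephx1 as a gene that rose in Nfib-high cultures and Ptgds and Obp2a as genes that rose in Nfib-low cultures. They read 5′ to 3′ on the gene's strand. Capitals mark the NFI arm TTGGC only where A follows it (TTGGCA), or the complement TGCCAA.
Ephx1 (chr1:181017570-181017819, minus strand): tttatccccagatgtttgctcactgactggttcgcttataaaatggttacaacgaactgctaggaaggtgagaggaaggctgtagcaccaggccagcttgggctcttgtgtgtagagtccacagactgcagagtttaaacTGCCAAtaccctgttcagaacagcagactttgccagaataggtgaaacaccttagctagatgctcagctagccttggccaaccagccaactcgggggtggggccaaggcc
Obp2a (chr2:25699824-25700073, plus strand): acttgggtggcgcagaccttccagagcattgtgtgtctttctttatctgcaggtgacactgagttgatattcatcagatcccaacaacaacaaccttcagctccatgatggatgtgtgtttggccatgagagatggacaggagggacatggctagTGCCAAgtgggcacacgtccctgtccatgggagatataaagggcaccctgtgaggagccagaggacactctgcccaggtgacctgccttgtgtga
Ptgds (chr2:25469750-25469999, minus strand): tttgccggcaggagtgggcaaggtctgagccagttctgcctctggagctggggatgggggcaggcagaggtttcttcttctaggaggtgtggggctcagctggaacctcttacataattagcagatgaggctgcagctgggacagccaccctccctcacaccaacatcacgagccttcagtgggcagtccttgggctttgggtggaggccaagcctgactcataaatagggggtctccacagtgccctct
The marked form of the arm begins 110 bases before the start in Ephx1 and 95 bases before it in Obp2a, and it is not in the Ptgds window. The start is a RefSeq start, which need not be the 5′ end of the gene interval that was counted. The windows of Ephx1 and Ptgds lie inside those intervals. The Ocm window, not shown, lies far beyond its own (144050560 to 144050859 against 144019804 to 144026670). The shorter TTGGC or GCCAA was not searched for alone, and it also occurs unmarked in each of the windows shown, that of Ptgds included. Over both strands, TTGGCA was found in 7 of the 31 windows, which belong to 6 of the 24 genes, and in 4640 of all 32851 windows of 300 bases (14.1%). The full palindrome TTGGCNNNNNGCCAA, which may overlap that arm, was in none of the 31 windows and in 12 of all windows (0.0365%). A match is a description of letters and no evidence of binding.

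Among the 5 genes whose effects had opposite signs and passed DESeq2 at both levels were, named because the count is small, Rcan2, an inhibitor of calcineurin, the long noncoding RNA Miat, Wdr66 and Fam102b. Rcan2 fell from 189 to 98.9 CPM (replicate 1) and 25.9 to 7.22 CPM (replicate 3), and went from 17.3 to 60.2 CPM (replicate 2) and 1.75 to 2.67 CPM (replicate 4). Its difference of 2.67 ± 0.49 (DESeq2 adjusted p of 4.88e-05) passed in all 4 fits that leave out 1 culture. Miat rose from 249 to 329.7 CPM (replicate 1) and 121 to 200.2 CPM (replicate 3), and went from 337 to 202 CPM (replicate 2) and 1180.3 to 999 CPM (replicate 4). Wdr66 and Fam102b rose in Nfib-low cultures (0.95 ± 0.21 and 0.75 ± 0.20) and were lower at the high level (-0.63 ± 0.19 and -0.61 ± 0.20). A further pair, also chosen after their values were seen, passed the difference in all 4 of those fits. Gsn, gelsolin, which severs actin filaments, fell from 119.9 to 59 CPM (replicate 1) and 61.1 to 18.2 CPM (replicate 3) and went from 30.5 to 43.5 CPM (replicate 2) and 23.6 to 38.4 CPM (replicate 4), and Thsd4, a matrix protein of microfibrils, fell from 31.5 to 7.8 CPM (replicate 2) and 26.1 to 7.93 CPM (replicate 4) against 169 to 225 CPM at the low level. Together with Slit1, Aif1l, Amotl1 and Rcan2 they were the 6 genes that passed in all 4 fits.

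Responses shared by both levels were sought as a mean effect that passed with the same sign in all 4 pairs. edgeR called 17 such genes (0.127% of those tested), 11 higher (0.0822%) and 6 lower (0.0448%). DESeq2 called 480 (3.59%), 223 higher (1.67%) and 257 lower (1.92%). Of the 480, 21 also differed in size between the levels and 459 did not pass that test, which does not show that they responded equally. The same sign in all 4 pairs was found in 25.7% of all tested genes. The 16 genes named from the 17 included Nfib itself.

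Shared rises were largest in genes with few counts. Tmem132b, a single-pass membrane protein, rose from 0.0682 to 5.5 CPM (replicate 1) and 0.223 to 5.83 CPM (replicate 3), and from 0 to 2.4 CPM (replicate 2) and 0.537 to 24.8 CPM (replicate 4). The mean effect was 5.45 ± 0.29 (edgeR adjusted p of 0.00701), and its difference between levels of 0.55 ± 1.16 has an interval from -1.72 to 2.81, too wide to say whether the size was equal. Clu, the secreted chaperone clusterin, rose in all 4 pairs, from 0.0341 to 0.262 CPM (replicate 1) and 1.52 to 10.5 CPM (replicate 3), and from 1.13 to 9.66 CPM (replicate 2) and 0.0895 to 2.2 CPM (replicate 4). Kcnq3, a voltage-gated potassium channel, had within-pair log2 ratios of 2.79 and 4.48 in replicates 1 and 3 and 2.46 and 1.96 in replicates 2 and 4. Slc9a2, a sodium/hydrogen exchanger, had 3.24 and 2.99 in replicates 1 and 3 and 3.02 and 2.75 in replicates 2 and 4, and its empty vector libraries held at most 1.51 CPM.

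Shared genes with more counts changed less. Eef2k, the kinase that slows elongation by phosphorylating eEF2, rose from 31.8 to 48.8 CPM (replicate 1) and 18 to 32.5 CPM (replicate 3), and from 22.1 to 70.6 CPM (replicate 2) and 18.6 to 69.8 CPM (replicate 4). The empty vector and Nfib libraries did not overlap, with the empty vector library of replicate 1 just below the Nfib library of replicate 3. Its effect was also larger in Nfib-high cultures, by 1.06 ± 0.26 (DESeq2 adjusted p of 0.0144). Lrrc75b rose from 5.52 to 15.4 CPM (replicate 1) and 3.27 to 6.87 CPM (replicate 3), and from 5.22 to 21.2 CPM (replicate 2) and 3.89 to 15.2 CPM (replicate 4). Kif26b, a kinesin-family protein, rose in all 4 pairs with ratios of 2.18 and 1.78 in replicates 1 and 3 and 0.64 and 0.41 in replicates 2 and 4, again with a higher start in Nfib-high cultures (109 and 192 CPM against 10.02 and 2.08 CPM). For Kif26b the difference of -1.53 ± 0.25 passed DESeq2 (adjusted p of 1.04e-06).

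Shared falls included 2 genes of neuronal signalling. Gria2, a subunit of AMPA-type glutamate receptors, fell from 296 to 195 CPM (replicate 1) and 126 to 80.3 CPM (replicate 3), and from 119.5 to 78.5 CPM (replicate 2) and 209 to 147 CPM (replicate 4). The difference between levels was 0.07 ± 0.15, with an interval from -0.23 to 0.36. Slc18a1, which loads monoamines into vesicles, fell from 18 to 8.25 CPM (replicate 1) and 129 to 45.5 CPM (replicate 3), and from 3.39 to 1.54 CPM (replicate 2) and 68.3 to 35.7 CPM (replicate 4), and the interval of its difference ran from -0.30 to 0.93. Hspa4l, a member of the Hsp110 chaperones, fell in all 4 pairs but more in Nfib-low cultures, with ratios of -0.88 and -0.83 in replicates 1 and 3 and -0.26 and -0.19 in replicates 2 and 4 and a difference of 0.62 ± 0.13 (DESeq2 adjusted p of 0.00113). Pkd2l1, a polycystin-family channel, had ratios of -0.37 and -0.06 in replicates 1 and 3 and -1.08 and -2.04 in replicates 2 and 4. Its Nfib-low effect of -0.23 ± 0.16 did not pass (DESeq2 adjusted p of 1) and its difference of -1.84 ± 0.29 did (adjusted p of 2.65e-07), so it belongs here by its mean effect only. Replicate 2 held 4 counts of Pkd2l1 with empty vector and 1 with Nfib, and its fall at the high level rests on replicate 4, with 976 and 270 counts. Dact2, a modulator of Wnt and TGF-beta signalling, had ratios of -0.85 and -1.21 in replicates 1 and 3 and -2.18 in replicate 2. Both libraries of replicate 4 held 1 count of Dact2, so the sign of the ratio there (-0.06) comes from the library sizes and its fall was measured in 3 cultures. Ocm, the calcium buffer oncomodulin, had ratios of -1.05 and -3.06 in replicates 1 and 3 and -3.94 and -1.85 in replicates 2 and 4. Its Nfib-low effect passed neither DESeq2 (adjusted p of 0.452) nor edgeR (0.199). The Nfib-high effect of Hspa4l also passed neither (DESeq2 0.194, edgeR 0.208), nor did that of Duox2, a shared rise (DESeq2 0.849, edgeR 0.327). Ocm, Hspa4l and Duox2 thus also count as shared by their mean effect and sign only.

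The shared calls depended on single cultures. Without replicate 1 or without replicate 3 edgeR called 0 shared genes, without replicate 2 it called 22 and without replicate 4 it called 312. At an adjusted p under 0.05, Nfib, Tmem132b, Clu, Duox2, Sirpa, Kif26b and Eef2k passed without replicate 2 and without replicate 4. Among the rest, Slc9a2, Kcnq3, Lrrc75b, Slc18a1, Gria2, Hspa4l, Dact2 and Ocm passed only without replicate 4, and Pkd2l1 only without replicate 2. The estimates moved less than the calls: Gria2 ranged from -0.61 to -0.57 and Eef2k from 1.20 to 1.31 over the 4 fits, and Dact2 from -1.69 to -0.60. Of the 16, Dact2 without replicate 2 was the case in which the value moved most relative to its size.

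**Figure D5:**
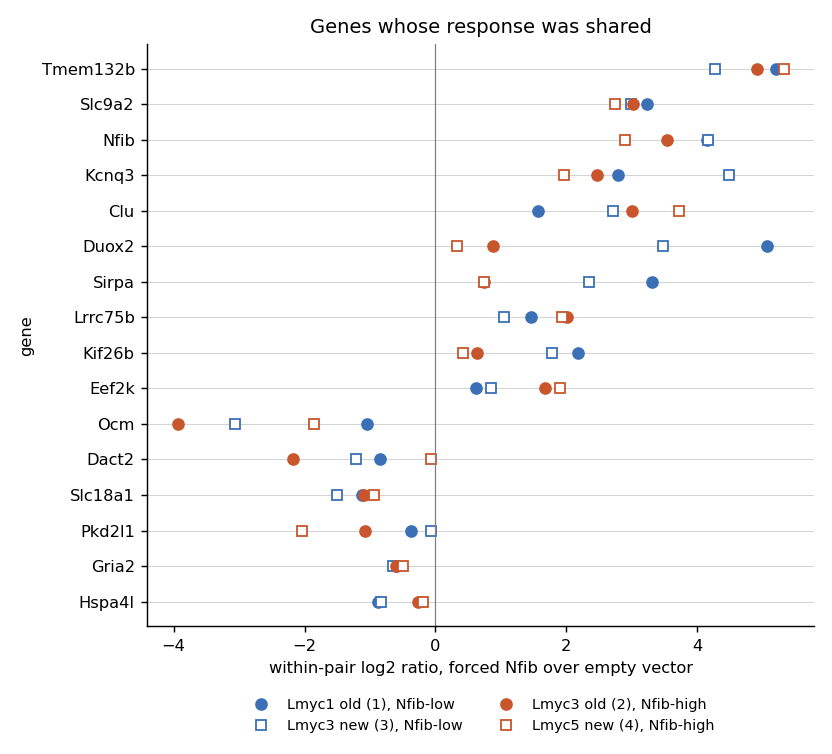
Within-pair log2 ratio of forced Nfib over empty vector for the 16 named genes with a shared effect, 1 point per culture, Nfib-low cultures in blue and Nfib-high cultures in orange. All points of a gene lie on the same side of 0, as the rule requires, with Duox2, Sirpa and Kif26b spread by level and Gria2 within -0.65 and -0.50.

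Gene lists by function were read against all tested genes, whose median effect was -0.01 in Nfib-low and -0.01 in Nfib-high cultures. Among 42 tested axon guidance genes, 5 differed and all 5 had the more negative effect in Nfib-high cultures (0.336% of all tested genes did). Besides Slit1 and Sema3c these were Sema3a, Sema6d and Plxna2. Plxna2, a semaphorin co-receptor, rose from 256 to 316 CPM (replicate 1) and 330.5 to 472 CPM (replicate 3), and went from 95.6 to 84.1 CPM (replicate 2) and 293 to 228 CPM (replicate 4), with a difference of -0.69 ± 0.17. Sema3a, a secreted repellent, rose from 0.648 to 3.97 CPM (replicate 1) and 0.223 to 0.562 CPM (replicate 3), and went from 57.1 to 44.4 CPM (replicate 2) and 0.492 to 0.549 CPM (replicate 4), so that only replicate 2 had a high level. Sema6d, a transmembrane semaphorin, was lower with Nfib from 49.6 to 20.00 CPM (replicate 2) and 74.8 to 39.6 CPM (replicate 4) and passed DESeq2 there. The list's median was 0.14 in Nfib-low and -0.08 in Nfib-high cultures, and in Nfib-low cultures 5 members rose (0.889% of all tested genes did) and 2 fell (0.688%). Sema6d and Plxna2 passed the difference in none of the 4 fits that leave out 1 culture (ranges -1.48 to -0.97 and -0.79 to -0.58), and Sema3a passed in 2, without replicate 3 and without replicate 4.

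Robo1 and Robo2, receptors of Slit1, were on the same list. Robo2 fell from 80.7 to 48 CPM (replicate 1) and 87.3 to 44.3 CPM (replicate 3), with an effect of -0.87 ± 0.13, and its Nfib-high effect of -0.22 ± 0.13 did not pass (DESeq2 adjusted p of 0.609). The difference of 0.65 ± 0.19 did not pass either (adjusted p of 0.0588). Robo1 went from 768 to 366 CPM (replicate 2) and 870.5 to 743 CPM (replicate 4) and passed DESeq2 there, and its Nfib-low effect was 0.16 ± 0.19 (adjusted p of 1). Nrp2, a semaphorin co-receptor, rose from 35.8 to 53.9 CPM (replicate 1) and 11.3 to 81.3 CPM (replicate 3).

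Of 30 tested neuroendocrine genes, 1 rose and 3 fell in Nfib-low cultures, against 0.889% and 0.688% of all tested genes. In Nfib-high cultures 0 passed DESeq2 as higher and 6 as lower, against 1.82% and 1.62% of all. The effects of 2 differed (0.762% of all), both more negative in Nfib-high cultures. The list median was -0.27 in Nfib-low and -0.38 in Nfib-high cultures. Syt1, the calcium sensor of vesicle release, fell from 103 to 56.7 CPM (replicate 2) and 342 to 199 CPM (replicate 4), and its values at the low level were 441 and 383 CPM in replicate 1 and 457 and 416 CPM in replicate 3. The difference of -0.66 ± 0.13 (DESeq2 adjusted p of 0.000556) passed in none of the 4 fits that leave out 1 culture. Resp18, a protein of secretory granules, fell from 229 to 97.4 CPM (replicate 1) and 97.8 to 21.7 CPM (replicate 3), and went from 177 to 96.8 CPM (replicate 2) and 6.76 to 5.37 CPM (replicate 4). Its ratios were negative in all 4 pairs, and its difference of 1.07 ± 0.37 did not pass (DESeq2 adjusted p of 0.213). Cpe, the carboxypeptidase that trims prohormones, fell from 137 to 110.2 CPM (replicate 1) and 95.2 to 49.9 CPM (replicate 3), and read from 309.5 to 325 CPM (replicate 2) and 187 to 211 CPM (replicate 4). Nkx2-1, the lung lineage factor, and Pcsk1, a prohormone convertase, passed DESeq2 as lower at the high level (-0.48 ± 0.15 and -0.71 ± 0.16).

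Among 46 tested neuronal and synaptic genes, 1 differed (0.762% of all tested genes did), Map2, a dendritic microtubule protein. It went from 382 to 269 CPM (replicate 2) and 725 to 522 CPM (replicate 4), which passed DESeq2, and read from 681 to 771 CPM (replicate 1) and 206 to 213 CPM (replicate 3). That difference of -0.61 ± 0.13 passed in none of the 4 fits that leave out 1 culture. In Nfib-low cultures 1 gene of the list rose (Kcnq3) and 3 fell (Nefh, Scn9a and Gria2), against 0.889% and 0.688% of all tested genes. In Nfib-high cultures 2 passed DESeq2 as higher and 7 as lower, against 1.82% and 1.62% of all. Scn9a, a voltage-gated sodium channel, fell from 46.5 to 28.7 CPM (replicate 1) and 166 to 63.8 CPM (replicate 3), and went from 10.7 to 4.04 CPM (replicate 2) and 152 to 76.8 CPM (replicate 4), with an interval for the difference from -0.77 to 0.52.

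Of 33 tested matrix and adhesion genes, 10 passed DESeq2 as higher and 2 as lower in Nfib-high cultures, against 1.82% and 1.62% of all tested genes. In Nfib-low cultures 4 rose and 2 fell, against 0.889% and 0.688% of all. Over all genes the count was also larger at the high level (460 against 211), and the counts of the list at the 2 levels were not tested against each other. L1cam, a neural adhesion molecule, went from 16.9 to 66.2 CPM (replicate 2) and 5.15 to 12.5 CPM (replicate 4), and stood at 43.6 and 179 CPM with empty vector at the low level, where it had ratios of 0.34 and -0.01. Col4a2, a basement membrane collagen, went from 70.6 to 127 CPM (replicate 2) and 1.84 to 6.24 CPM (replicate 4), against from 25.7 to 22.6 CPM (replicate 1) and 1.9 to 1.38 CPM (replicate 3). Alcam, an adhesion molecule of the immunoglobulin family, rose from 36.6 to 71 CPM (replicate 1) and 97.3 to 191 CPM (replicate 3), and read from 26.6 to 28.4 CPM (replicate 2) and 131 to 111 CPM (replicate 4). The 3 differences were 1.49 ± 0.32, 1.51 ± 0.43 and -1.05 ± 0.22. L1cam lost its call without replicate 2 (1.10) or 3 (1.29), Col4a2 in all 4 fits (from 1.13 to 2.05), and Alcam passed only without replicate 2 (from -1.22 to -0.87). Lama5, a laminin chain, rose from 32.9 to 47.4 CPM (replicate 1) and 22.4 to 44.7 CPM (replicate 3), and went from 25.5 to 45.3 CPM (replicate 2) and 44 to 87.9 CPM (replicate 4), a case of effects close in size (0.75 ± 0.20 and 0.91 ± 0.20).

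By DESeq2 or edgeR no gene differed among 13 Notch, 33 proliferation, 11 mitochondrially encoded, 20 sterol synthesis, 19 interferon, 18 stress, 18 immediate early, 17 epithelial and mesenchymal, and 9 Myc family genes tested. Over all tested genes 0.762% differed by DESeq2, and the absence of calls among these 158 is not read as a trait of the lists. At an unadjusted p under 0.05 DESeq2 had 8 and edgeR 14 of the 158, where over all tested genes it was 5.95% and 9.17%, which is near the general share. Within these, Hey1, a Notch target, rose from 20.4 to 51 CPM (replicate 1) and 13.7 to 24.5 CPM (replicate 3), while Dll1, a Notch ligand, passed DESeq2 as lower at the high level (-0.81 ± 0.23, adjusted p of 0.0186). Of the 11 mitochondrially encoded genes 4 passed DESeq2 as lower at the high level (1.62% of all tested genes did) and 0 at the low level (0.688% did). None of the 11 passed the test of the difference, and 5 passed DESeq2 as lower in the mean of both with the same sign in 4 pairs (1.92% of all tested genes did). All mitochondrially encoded rows together, tested or not, took from 2.20% to 4.81% of the counts over the libraries. In 16 of the 33 proliferation genes both ratios in Nfib-high cultures lay below both ratios in Nfib-low cultures, an order found in 19.5% of all tested genes, with a list median of 0.09 in Nfib-low and -0.10 in Nfib-high cultures. In 9 of the 19 interferon genes they lay above, an order found in 21.2% of all tested genes, with a median of -0.26 and 0.16. Members of one program rise and fall together, so they are not independent observations. Of the nuclear factor I family Nfib alone differed, as the rule has it, and no tested member of the marker lists for other cell types differed.

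Genes already high at baseline were described without a test, since the empty vector libraries chose the levels. A gene counted as such where both libraries of one level lay above both of the other, with a difference of at least 1 on the log2 scale and a mean of at least 1 CPM. There were 717 genes higher in Nfib-high cultures (5.36% of those tested) and 1198 higher in Nfib-low cultures (8.95%). Among the largest in Nfib-high cultures were Ddr2, a collagen-binding receptor tyrosine kinase, at 0.239 and 0.409 CPM in the Nfib-low and 77.4 and 206 CPM in the Nfib-high cultures, and Fez1, an adaptor of axonal transport, at 0 and 0.0372 CPM in the Nfib-low and 66.6 and 17.1 CPM in the Nfib-high cultures. Gnai1, an inhibitory G-protein subunit, Dchs1, a large protocadherin, Slc7a2, a cationic amino acid transporter, and Cnr1, a cannabinoid receptor, had at most 0.223 CPM in the Nfib-low cultures and between 12.3 and 48.5 CPM in the Nfib-high cultures. Fam115a, Slc35f1, Dpp10 and Lrrn1 completed the 10 named genes. Of these 10, Gnai1 and Lrrn1 passed DESeq2 as higher with Nfib in Nfib-high cultures (Lrrn1 from 6.31 to 20.1 CPM (replicate 2) and 61.2 to 117 CPM (replicate 4)).

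The genes higher in the Nfib-low cultures included genes of epithelial cells. Esrp1, an epithelial splicing regulator, stood at 219.6 and 377 CPM in the Nfib-low and 18.6 and 0.134 CPM in the Nfib-high cultures, and Ehf, an epithelial ETS factor, at 122 and 249.5 CPM in the Nfib-low and 1.13 and 1.03 CPM in the Nfib-high cultures. Tight-junction claudins showed the same order, Cldn7 at 72.6 and 111 CPM in the Nfib-low and 5.22 and 0.0448 CPM in the Nfib-high cultures and Cldn6 at 88.3 and 40.3 CPM in the Nfib-low and 0.518 and 0.0895 CPM in the Nfib-high cultures. Cdcp1, Tmem45b, Pde11a, Gpx2, a glutathione peroxidase of epithelia, Anxa1 and Pla2g16, a phospholipase, were the other named genes. Pla2g16 fell with Nfib from 80.9 to 38.7 CPM (replicate 1) and 100.3 to 57.2 CPM (replicate 3), and the other 9 did not pass in Nfib-low cultures. Of the 17 tested epithelial and mesenchymal genes, 10 were higher in Nfib-low and 2 in Nfib-high cultures at baseline. In Nfib-high cultures 10 of 46 neuronal and synaptic genes and 11 of 42 axon guidance genes were higher, with 3 of each list higher in Nfib-low cultures. Over all tested genes 8.95% were higher in Nfib-low and 5.36% in Nfib-high cultures. The lists were chosen with earlier results known and these libraries chose the levels, so the counts are a description.

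A comparison within the line Lmyc3 was possible for the old culture (Nfib-high) and the new culture (Nfib-low), with 1 pair each and no test. The ratio of the old pair minus that of the new has the sign of the reported difference in all 20 named genes by the naming rule, which asks for separated ratios, so only its size is of use. The value was -1.84 for Slit1, -3.30 for Ptgds, 5.14 for Bmpr1b, 4.59 for Amotl1 and 3.63 for Ephx1. For Gsta3 it was 1.66, well under its difference over all cultures. With empty vector, Esrp1 stood at 377 CPM in the new and 18.6 CPM in the old Lmyc3 culture. Its choice as a baseline gene fixed that order, so here too only the size is of use.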

How the data were processed

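RNA-seq libraries of 8 samples were analysed, an empty vector and an Nfib library from each of 4 cultures. The authors deposited raw, unscaled read counts by Ensembl gene, with symbols and coordinates. The libraries were TruSeq RNA libraries, per the labels' protocols, and TopHat2 2.1, Bowtie 1.0.0, SAMtools 0.1.19, DESeq2 and the build GRCm38 (mm10) are named, per the submitters' processing notes. How reads were counted, on which strand and with which annotation is not given in the sources used here, so overlapping and antisense genes, and genes with close copies, are uncertain. Of the 22691 rows, 4 have no gene name. A further allele in the labels, and any gene withheld from the text, is not reported here.

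Levels followed the stated value of 250 CPM (count over column total). edgeR 4.0.16 (R 4.3.3) kept 13380 genes by its expression filter by arm, with TMM factors. Its quasi-likelihood test used a block for the culture and 1 arm effect per level, on all 8 libraries, with 2 residual degrees of freedom. DESeq2 1.42.0 used the same design and was used for description where edgeR called fewer than 10 genes. Its fold changes are not shrunk, and genes to which it gave no adjusted p (1038 for the difference, 260 in Nfib-low, 779 in Nfib-high cultures, 519 for the mean) count as not passing. P-values were adjusted by Benjamini-Hochberg, in edgeR over all tested genes and in DESeq2 over the genes to which it gave an adjusted p. EdgeR gives no standard error, and the fold change (log2) over the root of F stands in for it. For within-pair ratios, 2 was the prior count of log2 CPM. Intervals are 95% Wald intervals of DESeq2, and limits for a count of 0 cover counting error only, since reads carry no molecular identifiers. An exact permutation test of 2 against 2 cultures cannot go below a two-sided p of 0.333 and was not used. The scripts were run on simulated counts with known differences, where the only requirement was that the median estimates lie near the known values. The simulation gave every gene the same spread and changed only well-counted genes, so it does not measure the error rate of the calls here.

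Libraries are paired by the labels, where a replicate number stands for 1 culture, and the pairing was checked by correlating deviations from the arm means across genes (r of 0.908, 0.884, 0.935 and 0.929 for the same number, at most 0.0647 otherwise). Nothing says that an arm was grown more than once, so p-values measure only the spread between these samples. Named genes were Nfib, the 10 genes of largest change each way that passed (mean of at least 1 CPM, and separated ratios for the difference or the same sign in 4 pairs for the shared effect), the 10 of largest baseline difference each way (mean of at least 10 CPM), and members of fixed lists that passed. The members and lists were chosen with earlier results of these data known. Alternatives were the original edgeR fit, limma 3.58.1 (voom), no block, other scaling, other filters, an adjusted p under 0.1, a prior count of 0.5, log2 Nfib as a number in place of 2 levels, and each replicate left out. A fit that leaves out 1 culture has 1 pair at one level, which is assumed to vary like the others. Other scalings and filters in DESeq2 were added after seeing the data.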

Additional observations from a re-analysis of the deposited data

Results flagged for a closer look

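The 20 named genes whose effect of forced Nfib differed between Nfib-low and Nfib-high cultures by DESeq2 are listed here with that difference (log2, Nfib-high minus Nfib-low). More positive in Nfib-high cultures were Gsta3 (6.12), Bmpr1b (4.99), Hapln1 (4.58), Gstt1 (3.98), Ildr2 (3.74), Padi2 (3.42), F3 (3.35), Amotl1 (3.24), Ephx1 (3.16) and Col23a1 (3.08). More negative in Nfib-high cultures were Obp2a (-5.38), Duox2 (-5.08), Ptgds (-4.91), Pde1a (-4.08), Vwa5b1 (-2.76), Atoh8 (-2.65), Slit1 (-2.59), Sema3c (-2.55), Fli1 (-2.51) and Sirpa (-2.50). Of the 20, Slit1 and Amotl1 passed in all 4 fits that leave out 1 culture.

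Mitochondrially encoded genes took 2.20% of the counts in the Nfib library of replicate 4, far below the other 3 Nfib libraries (3.46%, 3.48% and 3.63%). The rule that flagged this gap is met by chance in about 1 in 20 groups. It was applied to several library measures and to the named shared genes, so a flag can come by chance. The empty vector library of the same culture had 2.55%, and those of replicates 1, 2 and 3 had 3.86%, 4.81% and 3.84%.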

How the results depend on the processing

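Counts of called genes moved strongly with the test and with single cultures. None of the 30 genes followed one by one for the difference and the 16 for the shared effect changed direction under the tests, scalings, filters and left-out cultures run for them. That follows largely from the choice of genes and is no measure of stability. The named genes had separated ratios or the same sign in 4 pairs, and 101 of the 102 differing genes had separated ratios. The edgeR counts of 3 (difference), 7 (Nfib-low), 30 (Nfib-high) and 17 (shared) became 0, 0, 0 and 1 with the original edgeR fit, 0, 1, 4 and 1 with limma voom, 102, 211, 460 and 480 with DESeq2, and 0, 0, 0 and 0 without the replicate block, which the labelled pairing calls for. At an adjusted p under 0.1 they were 5, 12, 177 and 189. With log2 Nfib as a number in place of the levels edgeR called 0 for the difference. With no filter on low counts the Nfib-low count was 4, with a mean of at least 1 CPM the Nfib-high count was 54, and with total counts it was 18. Leaving out each replicate gave from 0 to 91, 0 to 33, 0 to 467 and 0 to 312 genes, with the highest count each time without replicate 4. The DESeq2 count of 102 became 1 without the replicate block and 49 with log2 Nfib as a number, of which 22 were among the 102, and from 19 (without replicate 1) to 242 (without replicate 4) with each replicate left out. The DESeq2 count of 211 became 6 without the block and from 52 (without replicate 1) to 229 with each replicate left out. Of the 102 genes, 93 remained with total counts and 101 with TMM factors, and 16, 25, 25 and 51 remained without replicates 1, 2, 3 and 4. Genes with separated ratios numbered 5442 with a prior count of 0.5 against 5447. The cause of these changes was not tested. Genes under about 1 CPM, such as Bmpr1b and Gstt1 in the empty vector library of replicate 4, are limited by depth.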

Other observations

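Several genes outside the naming rule, chosen here after their values were seen, had effects that differed by DESeq2. Nnat, an imprinted neuronal membrane protein, fell from 3.03 to 1.96 CPM (replicate 1) and 318 to 163 CPM (replicate 3), and went from 2966 to 536 CPM (replicate 2) and 235 to 78 CPM (replicate 4), with a difference of -1.19 ± 0.31 (adjusted p of 0.0233). Nrip1, a corepressor of nuclear receptors, went from 28.9 to 58.3 CPM (replicate 2) and 17.9 to 43.4 CPM (replicate 4), and read 50.1 and 54.9 CPM in replicate 1 and 23.9 and 25.8 CPM in replicate 3. Dner and Mfng, a Notch ligand-like protein and a glycosyltransferase that modifies Notch, were lower with Nfib at the high level by DESeq2 (-0.56 ± 0.14 and -0.81 ± 0.16) and had Nfib-low effects of 0.28 ± 0.14 and -0.03 ± 0.15 that did not pass. Dtx1, a Notch-pathway ubiquitin ligase, rose from 5.29 to 16.1 CPM (replicate 1) and 8.81 to 13.7 CPM (replicate 3), and stood at 31.4 and 123 CPM with empty vector in replicates 2 and 4. None of these 3 was on the fixed Notch list.

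A few genes of lysosomes and autophagy, also chosen after their values were seen, were among those more positive at the high level. Grn, progranulin, went from 109 to 189 CPM (replicate 2) and 72.6 to 102 CPM (replicate 4), Gaa, the acid alpha-glucosidase, from 138 to 171 CPM (replicate 2) and 53.9 to 69 CPM (replicate 4), and Wipi1, a protein of autophagosome formation, from 22 to 76.3 CPM (replicate 2) and 2.82 to 8.04 CPM (replicate 4). Their differences were 0.80 ± 0.21, 0.69 ± 0.17 and 1.51 ± 0.39. No list of lysosomal or autophagy genes was fixed, so whether they stand apart as a group was not tested.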
